A study of Mus musculus with 12 samples.

Results

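DNA replication in S phase draws on a fixed set of proteins, and the transcripts of 45 of them were followed in newborn mouse lungs that carried 1 inactivated copy of Foxf1. Members were genes named for replication origins, the replicative helicase, the polymerases and their clamp, the maturation of the lagging strand, chromatin assembly, the supply of deoxynucleotides and the cyclins of S phase entry. Each was read by the probe that bears its symbol in the array annotation, taking for a gene with several probes (23 of the 45) the brightest over the 12 arrays of the authors' processed table. All 45 of the 19057 annotated genes had a probe, and 43 passed the filter on dim probes and were tested beside 15652 genes in all. The choice used no measured difference between the genotypes, but earlier results of these data were known when it was made.

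Whole lungs of 6 Foxf1+/- pups and of 6 wildtype littermates, all at postnatal day 0.5 on a 129/C57BL6/J mixed background, were hybridized to 1 Illumina MouseWG-6 v2.0 array each. The mutant allele lacks the exon that encodes the forkhead DNA-binding domain, and it was made by crossing floxed mice with EIIa-Cre mice, whose Cre acts early and in the germ line, so that every cell type of these lungs was heterozygous. The labels name the lungs as biological replicates and give no sex. By the percentiles of raw signal the arrays fell into 2 experiments, A with 4 Foxf1+/- and 2 wildtype lungs and B with 2 Foxf1+/- and 4 wildtype lungs, and experiment was a term of the fit. The median raw intensity was 72.8 to 89.3 in experiment A and 57.3 to 62.6 in experiment B, and precision is limited by the small number of arrays. Foxf1 was itself lower in the Foxf1+/- lungs by limma's moderated test (log2 fold change -0.999 ± 0.13, adjusted p = 0.00224), with every Foxf1+/- lung below every wildtype lung of its experiment; whether the probe lies in the deleted exon was not established. Lung-defining markers averaged 11.8 to 12.2 in both genotypes.

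Replication starts when the origin recognition complex, with Cdc6 and Cdt1, loads the ring of Mcm2 to Mcm7 onto DNA in G1 phase. The kinase Cdc7 with its activator Dbf4, the GINS complex and Mcm10 then turn that ring into a running helicase, primase and the polymerases copy the strands behind it, and the clamp Pcna tethers the polymerases. Most of these genes are targets of E2F factors and are transcribed at the border of G1 and S phase, whereas genes of mitosis peak later, under factors such as FoxM1 and B-Myb. In the newborn lung proliferating cells are spread over endothelium, mesenchyme, epithelium and blood cells. In whole tissue, fewer cycling cells and less RNA per cell cannot be told apart.

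Differences of the replication genes between the genotypes were few and small. Of 43 tested members, 2 were called higher in Foxf1+/- lungs at an adjusted p under 0.05 and 0 lower, against 1.81% of all genes higher and 1.79% lower, so that the 4.65% of members called higher rests on a pair of genes. These were Chaf1a, the large subunit of the chromatin assembly factor that places histones on new DNA, and Rrm1, the large subunit of ribonucleotide reductase. Over 29 alternative settings Chaf1a was called in 13 (adjusted p = 0.0204 to 0.403) and Rrm1 in 9 (0.0151 to 0.521): both calls were lost with the Xist signal as a covariate, without the experiment term and in most fits that left out 1 lung, and that of Rrm1 also with no background correction, median scaling, a filter at the 50th percentile or the mean of all probes. Xist itself differed between the genotypes by 5.6e-05 ± 1.65 (SE), and the median member was at 0.0953 with or without it as a covariate. Of all 33947 probes, 1007 were called (2.97%). At an unadjusted p under 0.05, 12 members were higher (27.9%, against 9.21% of all genes) and 1 was lower (2.33%, against 9.74%). The fold change was positive for 29 of the 43 (67.4%, against 47.5% of all genes) and negative for 14. The median log2 fold change of the members was 0.10, with a range of -0.27 to 0.43, and the median of all genes was -0.01. The same sign in both array experiments was found for 25 members on the higher side (58.1%, against 29.9%) and for 4 on the lower side (9.3%, against 33.7%). A member had to change by a median of 0.42 on the log2 scale to be called, with a range of 0.18 to 0.81 set by its own spread, so that differences of this size could mostly not be called with 12 arrays.

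**Figure D1:**
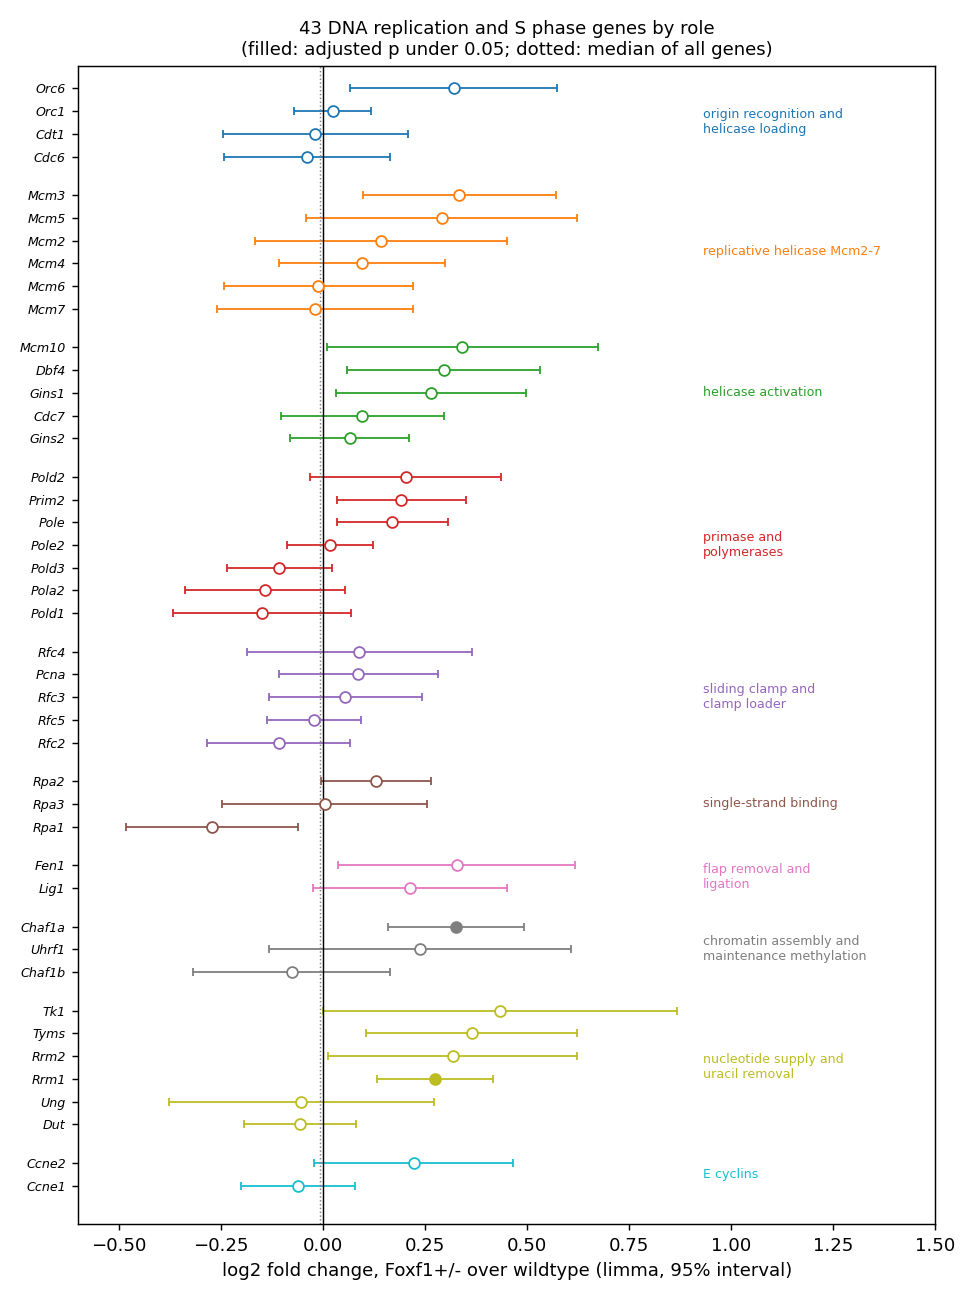
Log2 fold change of Foxf1+/- over wildtype lungs for the 43 tested members, in groups by role, with the 95% interval of limma's fit. Filled points mark Chaf1a (0.33) and Rrm1 (0.27), the only calls at an adjusted p under 0.05; 13 of the 43 intervals leave out 0, of which only that of Rpa1 lies below it.

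Chaf1a showed the separation most evenly. Chaf1a read 9.08, 8.94, 8.86 and 8.88 in the Foxf1+/- lungs and 8.63 and 8.66 in the wildtype lungs of experiment A, and 8.55 and 8.89 in the Foxf1+/- lungs and 8.35, 8.17, 8.49 and 8.41 in the wildtype lungs of experiment B. Every Foxf1+/- lung thus lay above every wildtype lung within each experiment, although the ranges overlap when the experiments are pooled. The log2 fold change was 0.33 ± 0.08 (SE; adjusted p = 0.0423), and the genotypes differed by 0.29 within experiment A and by 0.36 within experiment B. Leaving out 1 array at a time gave adjusted p-values of 0.0374 to 0.164, and the call held only without wildtype replicate 5. All Foxf1+/- above all wildtype lungs in both experiments was found for 2 of the 43 members, Chaf1a and the primase subunit Prim2, against 2.89% of all genes, and 0 members were below in both, against 3.18%. Over all 12 arrays 0 members were without overlap, against 2.00%. The smaller subunit of the same assembly factor, Chaf1b, had a log2 fold change of -0.08 ± 0.11 (SE; adjusted p = 0.804). Uhrf1, which brings the maintenance methyltransferase to newly copied DNA, had 0.24 ± 0.17 (SE; adjusted p = 0.554), made up of 0.49 within experiment A and -0.01 within experiment B, and it was 0.11 without wildtype replicate 2 and 0.41 without Foxf1+/- replicate 5.

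Of 6 genes of nucleotide supply and uracil removal 4 stood on the higher side, with the highest median of all roles (0.30). Rrm1 read 10.11, 10.09, 10.12 and 10.24 in the Foxf1+/- lungs and 9.74 and 9.84 in the wildtype lungs of experiment A, and 9.75 and 9.92 in the Foxf1+/- lungs and 9.80, 9.51, 9.64 and 9.60 in the wildtype lungs of experiment B. In experiment A the 4 Foxf1+/- lungs all exceeded the wildtype lungs, and in experiment B wildtype replicate 3 exceeded Foxf1+/- replicate 5. Its log2 fold change was 0.27 ± 0.07 (SE; adjusted p = 0.0444), and without 1 array the adjusted p was 0.0233 to 0.154, with the call held without Foxf1+/- replicate 5 and without wildtype replicate 3. A second probe of Rrm1 above the floor gave 0.16 ± 0.10 (SE; adjusted p = 0.464). Tyms read 9.88, 9.56, 9.97 and 9.94 in the Foxf1+/- lungs and 9.38 and 9.29 in the wildtype lungs of experiment A, and 9.39 and 9.69 in the Foxf1+/- lungs and 9.07, 9.24, 9.69 and 9.26 in the wildtype lungs of experiment B. Tyms, thymidylate synthase, makes the thymidine nucleotide of DNA. The genotypes separated in experiment A, while wildtype replicate 5 stood level with Foxf1+/- replicate 6 at the top of experiment B. The log2 fold change of Tyms was 0.36 ± 0.12 (SE; adjusted p = 0.137), and without wildtype replicate 5 it was 0.43 (adjusted p = 0.0278). Rrm2 read 7.20, 7.22, 7.47 and 7.66 in the Foxf1+/- lungs and 7.13 and 7.11 in the wildtype lungs of experiment A, and 7.64 and 7.79 in the Foxf1+/- lungs and 7.53, 7.02, 7.79 and 7.05 in the wildtype lungs of experiment B. Rrm2, the small subunit of the reductase whose level follows S phase, had a log2 fold change of 0.32 ± 0.14 (SE; adjusted p = 0.280), and the same pair of lungs shared the top of experiment B. Thymidine kinase, Tk1, had the highest fold change of all members and also the widest error, 0.43 ± 0.20 (SE; adjusted p = 0.303). Its size depended on single lungs, at 0.24 without Foxf1+/- replicate 6 and 0.67 without Foxf1+/- replicate 5, and stayed positive whichever lung was left out. A second probe of Tk1, just above the floor, gave 0.25 ± 0.06 (SE; adjusted p = 0.0568). The dUTPase Dut (-0.06) and the uracil glycosylase Ung (-0.05), which keep uracil out of DNA, had adjusted p-values of 0.735 and 0.908.

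**Figure D2:**
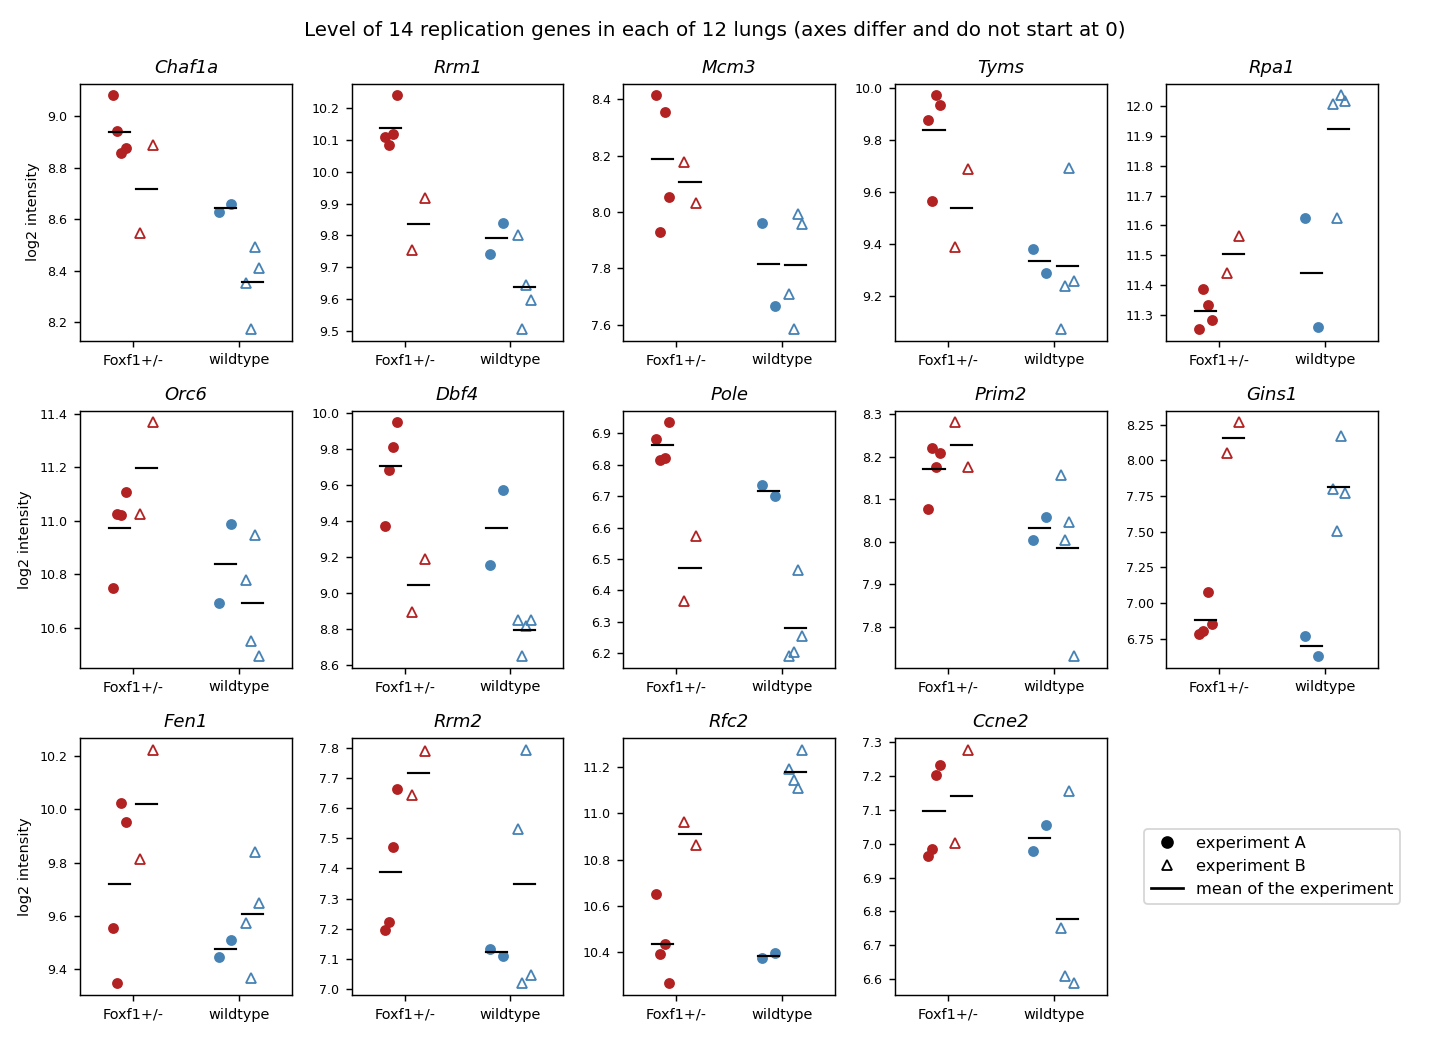
Normalized log2 intensity of 14 members in each of the 12 lungs, Foxf1+/- on the left and wildtype on the right, with circles for experiment A, triangles for experiment B and a bar at the mean of each. Chaf1a and Prim2 have every Foxf1+/- point above every wildtype point of the same experiment, while Rpa1 and Rfc2 have both Foxf1+/- points below the 4 wildtype points in experiment B.

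The 5 members that switch the loaded helicase on were all on the higher side. The 5 of them had log2 fold changes of 0.07 to 0.34 (median 0.26). These were positive in both experiments for 5 of 5 (100%, against 29.9% of all genes). At an unadjusted p under 0.05, 3 were higher (60%, against 9.21% of all genes), and 0 were called. Dbf4 read 9.37, 9.68, 9.81 and 9.95 in the Foxf1+/- lungs and 9.15 and 9.57 in the wildtype lungs of experiment A, and 8.90 and 9.19 in the Foxf1+/- lungs and 8.85, 8.65, 8.81 and 8.85 in the wildtype lungs of experiment B. Dbf4 was higher in both Foxf1+/- lungs of experiment B than in any wildtype lung there, and the groups overlapped in experiment A. Its log2 fold change was 0.30 ± 0.11 (SE; adjusted p = 0.188). Gins1 read 6.79, 6.80, 7.08 and 6.85 in the Foxf1+/- lungs and 6.77 and 6.63 in the wildtype lungs of experiment A, and 8.05 and 8.27 in the Foxf1+/- lungs and 7.80, 7.51, 8.17 and 7.77 in the wildtype lungs of experiment B. For Gins1, a subunit of the GINS complex that joins the helicase at the fork, the genotypes separated in experiment A only, and the level differed far more between the experiments than between the genotypes. Its log2 fold change was 0.26 ± 0.11 (SE; adjusted p = 0.230), and without the experiment term the genotypes differed by -0.13. Mcm10 had 0.34 ± 0.15 (SE; adjusted p = 0.286), with 0.20 left without Foxf1+/- replicate 6, Cdc7 0.10 ± 0.09 (SE; adjusted p = 0.686) and Gins2 0.07 ± 0.07 (SE; adjusted p = 0.710). Of the GINS subunits outside the members, Gins3 had -0.05 ± 0.07 (SE; adjusted p = 0.803) and Gins4 0.13 ± 0.06 (SE; adjusted p = 0.342).

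The genes of the helicase ring had fold changes from -0.02 to 0.33. Mcm3 read 8.41, 7.93, 8.36 and 8.05 in the Foxf1+/- lungs and 7.96 and 7.67 in the wildtype lungs of experiment A, and 8.18 and 8.03 in the Foxf1+/- lungs and 7.71, 7.59, 7.99 and 7.96 in the wildtype lungs of experiment B. Both Foxf1+/- lungs of experiment B stood above the 4 wildtype lungs there, and in experiment A wildtype replicate 1 lay above Foxf1+/- replicate 2. The log2 fold change of Mcm3 was 0.33 ± 0.11 (SE; adjusted p = 0.134). Mcm5 (0.29), Mcm2 (0.14) and Mcm4 (0.10) had positive fold changes with adjusted p-values of 0.381 to 0.703, and Mcm6 (-0.01) and Mcm7 (-0.02) were close to 0. A second, dimmer probe of Mcm7 above the floor gave 0.20 ± 0.09 (SE; adjusted p = 0.253), so that the probes of this gene disagree. Mcm2 was at 0.06 without Foxf1+/- replicate 1, and at 0.09 without wildtype replicate 1 or 2.

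Among the 4 members of origin recognition and loading, only Orc6 had an unadjusted p under 0.05. Other origin subunits, Orc3 among them, were outside the members and are treated below with further replication genes. Orc6 read 10.75, 11.02, 11.02 and 11.11 in the Foxf1+/- lungs and 10.69 and 10.99 in the wildtype lungs of experiment A, and 11.03 and 11.37 in the Foxf1+/- lungs and 10.78, 10.55, 10.95 and 10.49 in the wildtype lungs of experiment B. In experiment B the Foxf1+/- lungs of Orc6 exceeded all 4 wildtype lungs, and in experiment A wildtype replicate 2 lay within the Foxf1+/- range. Its log2 fold change was 0.32 ± 0.12 (SE; adjusted p = 0.181), and without Foxf1+/- replicate 6 it was 0.21. Cdt1, which helps to load the ring and is degraded once S phase starts, had -0.02 ± 0.10 (SE; adjusted p = 0.956). The probes of Orc1 and Cdc6 lay at the floor of the arrays, taken here as a mean log2 intensity of at most 6.56, and tell nothing of either gene's level. The same holds for the probes of Prim1 and Pola1, which were too dim to be tested, and of Pole2, Pcna and Ccne1, so that 7 of the 45 members, Pcna included, were not measured above the floor in either genotype. Without them the median log2 fold change of the 38 remaining members was 0.13.

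The polymerases went both ways. Prim2 read 8.08, 8.22, 8.18 and 8.21 in the Foxf1+/- lungs and 8.0 and 8.06 in the wildtype lungs of experiment A, and 8.28 and 8.18 in the Foxf1+/- lungs and 8.16, 8.0, 8.05 and 7.73 in the wildtype lungs of experiment B. Prim2, the regulatory subunit of primase, had a log2 fold change of 0.19 ± 0.07 (SE; adjusted p = 0.199), and its lowest reading by far was wildtype replicate 6. A second, dimmer probe of Prim2 above the floor gave 0.04 ± 0.08 (SE; adjusted p = 0.845). Pole read 6.88, 6.82, 6.82 and 6.94 in the Foxf1+/- lungs and 6.73 and 6.70 in the wildtype lungs of experiment A, and 6.37 and 6.57 in the Foxf1+/- lungs and 6.19, 6.20, 6.47 and 6.25 in the wildtype lungs of experiment B. Pole, the catalytic subunit of the leading strand polymerase, had 0.17 ± 0.06 (SE; adjusted p = 0.190), with its wildtype mean at the floor. Pold2, an accessory subunit of the lagging strand polymerase, had 0.20 ± 0.11 (SE; adjusted p = 0.388), and 0.08 without wildtype replicate 2. The catalytic subunit Pold1 (-0.15), its partner Pold3 (-0.11) and the primase-associated subunit Pola2 (-0.14) had adjusted p-values of 0.405 to 0.521; without Foxf1+/- replicate 5 Pold1 was at -0.06, and without wildtype replicate 2 Pold3 was at -0.07. Pold1 read 8.31, 8.26, 8.44 and 8.31 in Foxf1+/- lungs and 8.22 and 8.23 in wildtype lungs of experiment A, a difference of 0.11 with no overlap. In experiment B it read 9.15 and 9.31 in Foxf1+/- lungs and 9.47, 9.58, 9.61 and 9.86 in wildtype lungs, a difference of -0.40 with no overlap in the other direction. Limma's test of genotype by experiment gave Pold1 an unadjusted p of 0.00479 and an adjusted p of 0.999, and across all 15652 genes it called 0 (3.59% at an unadjusted p under 0.05, and 2 of the 43 members).

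The lowest fold change of all members was that of Rpa1, the large subunit of the protein that covers single-stranded DNA at the fork. Rpa1 read 11.25, 11.39, 11.33 and 11.28 in the Foxf1+/- lungs and 11.62 and 11.26 in the wildtype lungs of experiment A, and 11.44 and 11.57 in the Foxf1+/- lungs and 12.01, 11.62, 12.04 and 12.02 in the wildtype lungs of experiment B. Both Foxf1+/- lungs of experiment B were below all wildtype lungs there, and in experiment A wildtype replicate 2 lay within the Foxf1+/- range while replicate 1 lay above it. The log2 fold change of Rpa1 was -0.27 ± 0.10 (SE; adjusted p = 0.170). Its partners Rpa2, 0.13 ± 0.06 (SE; adjusted p = 0.329), and Rpa3, 0.00 ± 0.12 (SE; adjusted p = 0.992), did not pass either, and Rpa2 was at 0.08 without Foxf1+/- replicate 6 and 0.20 without wildtype replicate 1. Rfc2 read 10.65, 10.39, 10.44 and 10.27 in the Foxf1+/- lungs and 10.38 and 10.40 in the wildtype lungs of experiment A, and 10.96 and 10.86 in the Foxf1+/- lungs and 11.19, 11.14, 11.11 and 11.27 in the wildtype lungs of experiment B. Rfc2, a subunit of the clamp loader, was lower in both Foxf1+/- lungs of experiment B than in the wildtype lungs, at a difference of -0.27, and differed by 0.05 in experiment A. Its log2 fold change was -0.11 ± 0.08 (SE; adjusted p = 0.563), or -0.05 without Foxf1+/- replicate 6. Further probes of Rfc2 above the floor gave -0.05, -0.16 and 0.09, so that they disagree in sign. The other loader subunits Rfc3, Rfc4 and Rfc5 had 0.05, 0.09 and -0.02, with adjusted p-values of 0.803 to 0.891. In experiment B 7 members had both Foxf1+/- lungs below all 4 wildtype lungs (Pola2, Pold1, Pold3, Rfc2, Rfc5, Rpa1 and Ccne1; 16.3%, against 11.8% of all genes) and 6 had both above (against 12.4%), whereas in experiment A 12 members had all 4 Foxf1+/- lungs above both wildtype lungs (27.9%, against 8.25%) and 0 had them below (against 9.67%).

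Both members that finish the lagging strand were on the higher side. Fen1 read 9.55, 9.35, 10.03 and 9.95 in the Foxf1+/- lungs and 9.44 and 9.51 in the wildtype lungs of experiment A, and 9.81 and 10.22 in the Foxf1+/- lungs and 9.58, 9.37, 9.84 and 9.65 in the wildtype lungs of experiment B. Fen1, the nuclease that trims the flaps between Okazaki fragments, had a log2 fold change of 0.33 ± 0.13 (SE; adjusted p = 0.236), with overlap in both experiments. Lig1, the ligase that seals them, had 0.21 ± 0.11 (SE; adjusted p = 0.370), with 0.12 without wildtype replicate 2 and 0.32 without Foxf1+/- replicate 5. Ccne2 read 6.96, 6.99, 7.20 and 7.23 in the Foxf1+/- lungs and 6.98 and 7.06 in the wildtype lungs of experiment A, and 7.0 and 7.28 in the Foxf1+/- lungs and 6.75, 6.61, 7.16 and 6.59 in the wildtype lungs of experiment B. Ccne2, an E cyclin that drives entry into S phase, had 0.22 ± 0.11 (SE; adjusted p = 0.358), or 0.14 without Foxf1+/- replicate 6, and the low end was held by wildtype replicates 4 and 6. Of 48 further probes of the 45 genes, 38 were tested and 0 called. Of the 16 that lay above the floor, 14 had the sign of the probe used.

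Promoter sequences show what the members share apart from their signal, and those of the 3 genes with the lowest adjusted p that have an entry are shown. Windows of 300 bases, from 250 before to 50 after the RefSeq start (GRCm38.p6), were at hand for 38 of the 45 members. They were searched on both strands for the E2F motif (TTTCCCGC, TTTCGCGC, TTTGCCGC or TTTGGCGC), the CCAAT box (CCAAT) and the cell cycle homology region of late cell cycle genes (TTTGAA or TTCGAA), none of which holds another, and matches on either strand are in capitals. The window of Chaf1a lies at chr17:56040166-56040465 (plus strand), Rrm1 at chr7:102441445-102441744 (plus strand) and Mcm3 at chr1:20820263-20820562 (minus strand).
Chaf1a: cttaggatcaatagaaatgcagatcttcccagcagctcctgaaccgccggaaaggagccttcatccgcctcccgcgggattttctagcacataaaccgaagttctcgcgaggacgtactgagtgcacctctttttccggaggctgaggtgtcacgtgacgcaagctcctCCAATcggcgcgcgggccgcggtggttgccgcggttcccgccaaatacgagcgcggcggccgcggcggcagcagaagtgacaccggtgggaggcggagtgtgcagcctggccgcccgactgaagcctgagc
Rrm1: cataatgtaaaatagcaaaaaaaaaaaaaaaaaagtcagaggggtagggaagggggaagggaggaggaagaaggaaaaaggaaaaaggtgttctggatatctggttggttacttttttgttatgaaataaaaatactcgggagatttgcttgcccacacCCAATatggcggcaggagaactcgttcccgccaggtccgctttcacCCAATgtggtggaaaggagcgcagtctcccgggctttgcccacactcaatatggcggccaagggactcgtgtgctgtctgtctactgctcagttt
Mcm3: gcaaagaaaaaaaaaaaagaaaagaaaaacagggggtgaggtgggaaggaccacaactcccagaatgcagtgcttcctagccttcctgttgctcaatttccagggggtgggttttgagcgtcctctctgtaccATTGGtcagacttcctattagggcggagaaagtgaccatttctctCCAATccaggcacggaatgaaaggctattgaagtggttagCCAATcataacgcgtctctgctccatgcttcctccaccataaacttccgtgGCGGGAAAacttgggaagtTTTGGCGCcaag
Chaf1a holds 1 CCAAT box and Rrm1 holds 2, and neither holds an E2F motif of these letters. Mcm3 holds 3 CCAAT boxes before its start and 2 E2F motifs after it, at bases 20 to 27 and 39 to 46 of the transcript.

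Across genes, an E2F motif was found in 14 of 38 members (36.8%), in 1 of 17 genes of a mitosis list (5.88%) and in 2.60% of all 27025 genes with an entry. The CCAAT box was found in 20 members (52.6%), 15 mitosis genes (88.2%) and 41.1% of all genes. The cell cycle homology region was found in 7 members (18.4%), 13 mitosis genes (76.5%) and 21.7% of all genes. Of the 13 tested members with an E2F motif, 7 had a positive fold change and the median was 0.02, and of the 23 with an entry and none, 16 had a positive fold change and the median was 0.13. Of the 18 with a CCAAT box 15 were positive (median 0.17), and of the 18 without it 8 were positive (median -0.02). Of the 7 with a cell cycle homology region 6 were positive (median 0.14), and of the 29 without it 17 were positive (median 0.02). Chaf1a and Rrm1 are among the genes with a CCAAT box. A match of letters is a description and was not tested against binding.

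Genes of mitosis, which comes after replication, were higher in Foxf1+/- lungs. Of 21 genes of the mitosis list 15 were tested, and 10 rose in Foxf1+/- lungs (66.7%, against 1.81% of all genes), 0 fell and 14 were higher at an unadjusted p under 0.05. The median log2 fold change was 0.74, with a range of 0.04 to 1.04, beside 0.10 for the replication members. Plk1, the kinase of mitotic entry, rose by 0.74 ± 0.12 (SE; adjusted p = 0.00624), Prc1, which bundles spindle microtubules, by 1.04 ± 0.17 (SE; adjusted p = 0.00701), and Foxm1, the factor that drives late cell cycle genes, by 0.59 ± 0.10 (SE; adjusted p = 0.00813). For 11 of the 15 every Foxf1+/- lung lay above every wildtype lung in both experiments, against 2.89% of all genes, and for 5 of them there was no overlap over all 12 arrays, against 2.00% of all genes. Leaving out 1 array left 4 to 11 called of the 14 to 16 then tested, with 4 of 16 without Foxf1+/- replicate 6 and 5 of 16 without wildtype replicate 1. The difference between the lists was not tested, and the lists share their samples.

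**Figure D3:**
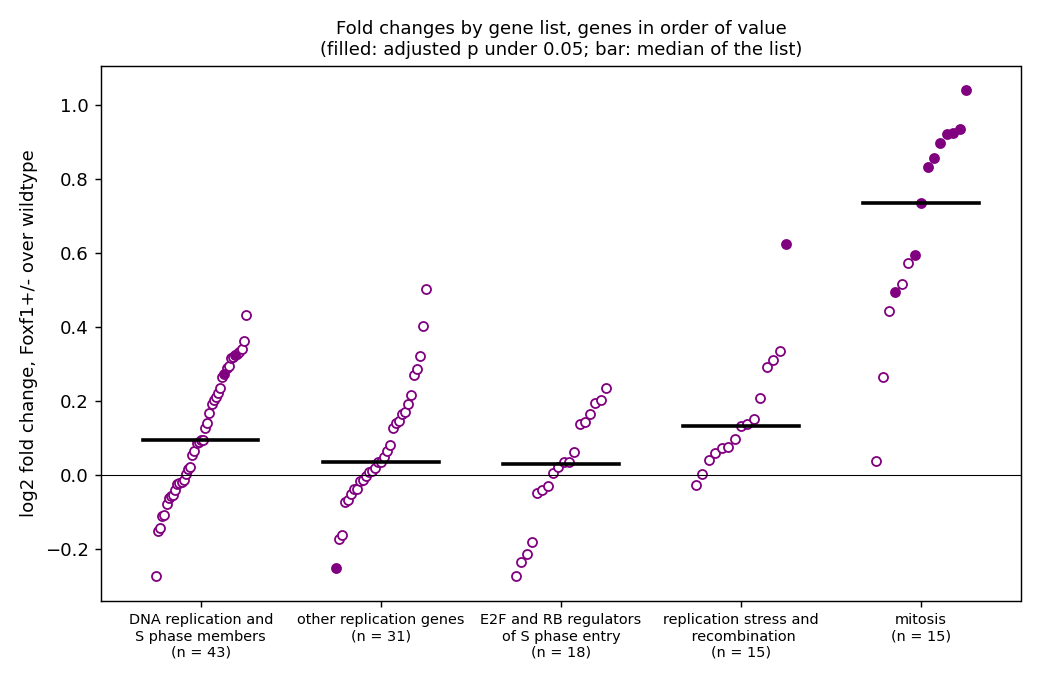
Log2 fold change of Foxf1+/- over wildtype for each tested gene of 5 lists, in order of value within a list, with a bar at the median and filled points at an adjusted p under 0.05. The medians are 0.10 for the replication members, 0.04 for other replication genes, 0.03 for E2F and RB regulators, 0.13 for replication stress and recombination and 0.74 for mitosis.

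Further genes of replication had small differences too. Of 36 further replication genes 31 were tested, with a median log2 fold change of 0.04. Of these, 0 were called higher (against 1.81% of all genes) and 1 lower (3.23%, against 1.79%). Higher at an unadjusted p under 0.05 were 7 (22.6%, against 9.21%), and lower were 2 (6.45%, against 9.74%). The fold change was positive for 20 (64.5%, against 47.5%). The origin subunit Orc3 fell, -0.25 ± 0.06 (SE; adjusted p = 0.0340), by much the same amount in experiments A (-0.24) and B (-0.26). The histone chaperone Asf1b, 0.32 ± 0.09 (SE; adjusted p = 0.0706), and the helicase subunit Cdc45, 0.40 ± 0.12 (SE; adjusted p = 0.0937), were on the higher side without a call. Of 21 E2F and RB regulators 18 were tested and 0 called, with a median of 0.03. An unadjusted p under 0.05 was found for 3 on the higher side (16.7%, against 9.21%) and 1 on the lower side (5.56%, against 9.74%). The pocket protein Rbl1 had -0.21 ± 0.07 (SE; adjusted p = 0.134), the repressor E2f7 0.20 ± 0.07 (SE; adjusted p = 0.177) and the E2F partner Tfdp1 0.23 ± 0.09 (SE; adjusted p = 0.216). Of 16 genes of replication stress and recombination 15 were tested, with 1 called higher (6.67%, against 1.81% of all genes) and 0 lower. Higher at an unadjusted p under 0.05 were 6 (40%, against 9.21%), and lower were 0 (against 9.74%). Positive fold changes were found for 14 (93.3%, against 47.5%), with a median of 0.13, although 7 of the 15 lay at the floor. The histone variant H2afx, which is marked at broken DNA, rose by 0.62 ± 0.11 (SE; adjusted p = 0.0120). Fancd2 of the Fanconi pathway had 0.21 ± 0.07 (SE; adjusted p = 0.131).

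Members varied between the lungs of 1 genotype. Set against the wildtype mean of the same experiment, the median member differed by 0.08, 0.06, 0.18 and 0.13 in Foxf1+/- replicates 1 to 4 of experiment A, and by 0.00 and 0.19 in Foxf1+/- replicates 5 and 6 of experiment B. The wildtype lungs of experiment B stood at -0.05, -0.09, 0.14 and -0.01 for replicates 3 to 6. Wildtype replicate 5 was thus above 4 of the 6 Foxf1+/- lungs and was the highest lung of experiment B for 15 of the 43 members, while Foxf1+/- replicate 6 was the highest for 18. Mitosis genes differed by 0.42 to 0.94 in the 6 Foxf1+/- lungs and by -0.44 to 0.20 in the 6 wildtype lungs, with wildtype replicate 5 at 0.05.

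Markers of other cell types differed between these lungs. The T cell and thymocyte list (10 of 14 genes tested, 0 called) averaged 6.66 to 6.73 in Foxf1+/- lungs and 6.64 to 8.47 in wildtype lungs, and the top value is that of wildtype replicate 5, with Cd3d at 10.84 there. Without this lung the median member had a log2 fold change of 0.13, with 2 called (Chaf1a and Tyms), and with the T cell level as a covariate it was 0.13, with the same pair called. The squamous epithelium list (6 of 7 tested, 0 called, 6 of 6 with a negative fold change) averaged 6.56 to 8.90 in Foxf1+/- lungs and 6.43 to 10.28 in wildtype lungs, being at 8.40 or above in wildtype replicates 1 to 5 and in Foxf1+/- replicates 4 and 6. With its level as a covariate the median member had 0.16 and 7 were called higher (Rrm1, Rrm2, Tk1, Orc6, Pole, Chaf1a and Ccne2). Erythroid precursor markers, of cells that also divide, averaged 9.56 to 10.31 in Foxf1+/- lungs and 10.15 to 10.40 in wildtype lungs, with 6 of 7 fold changes negative and 0 called. Hba-a1, 1 of the 6, read 15.32 in every lung of experiment B, so that its negative sign rests on experiment A alone (-0.12). At an unadjusted p under 0.05, 2 erythroid markers were lower (28.6%, against 9.74% of all genes). These were Alas2 (-1.02 ± 0.28, SE; adjusted p = 0.0751) and Slc4a1 (-0.98 ± 0.30, SE; adjusted p = 0.117). Mast cell markers rose in 6 of 8 and averaged 9.09 to 9.45 in Foxf1+/- lungs and 7.59 to 7.97 in wildtype lungs. Neutrophil markers averaged 8.43 to 8.89 in Foxf1+/- lungs and 8.81 to 9.29 in wildtype lungs, with 7 of 8 fold changes negative and 1 called, Ltf, which fell (-1.05 ± 0.23, SE; adjusted p = 0.0308). The part of these cells in the members' values was not tested beyond those 2 covariates.

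**Figure D4:**
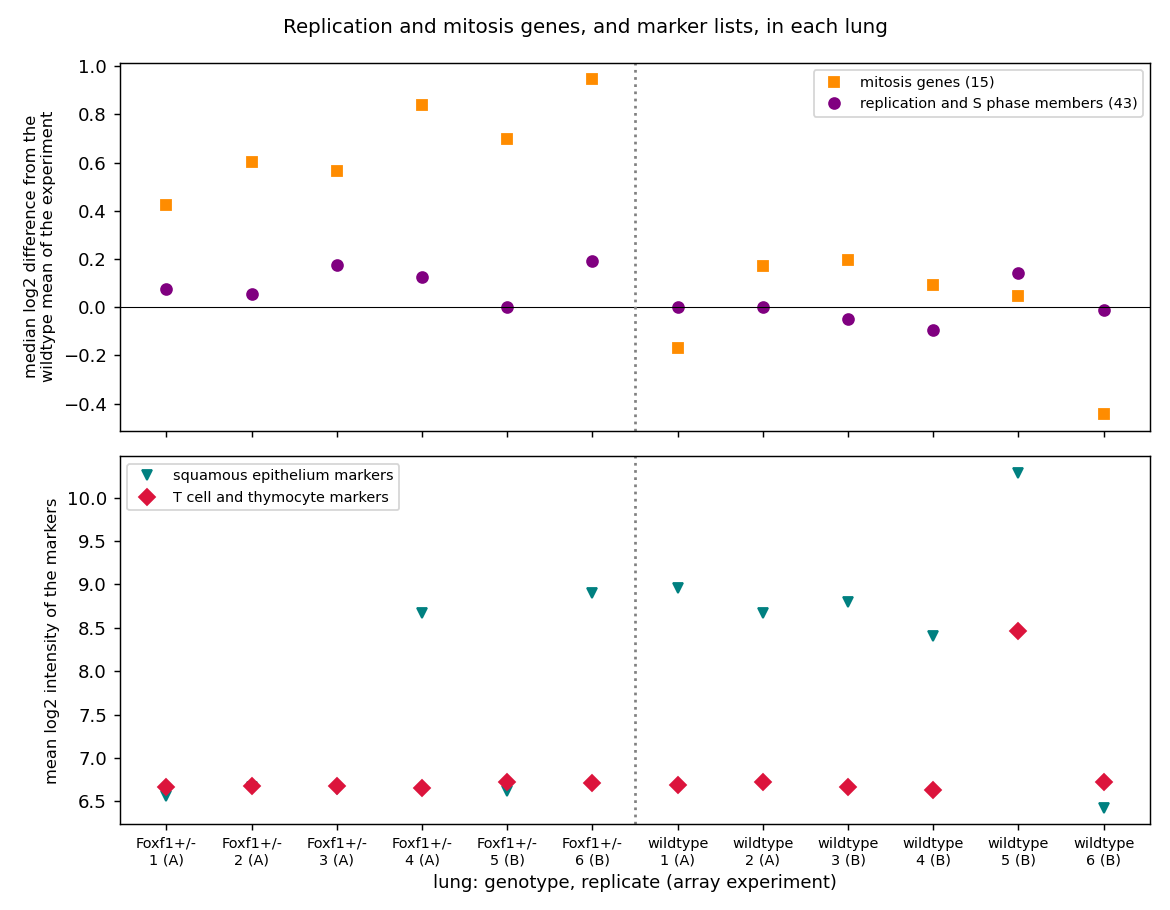
Top, the median difference of the 43 members and of 15 mitosis genes from the wildtype mean of the same array experiment, for each Foxf1+/- lung (left) and wildtype lung (right); bottom, the mean log2 intensity of the squamous epithelium and of the T cell and thymocyte markers in the same lungs. Mitosis genes stand at 0.42 or above in every Foxf1+/- lung, whereas wildtype replicate 5, with the highest marker levels, has its replication members at 0.14.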

How the data were processed

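Illumina MouseWG-6 v2.0 bead arrays measured total RNA of 12 whole lungs. The authors deposited raw probe intensity per array on a linear scale, not background corrected, and a second table of processed log2 values, which their methods describe as variance stabilized and spline normalized in lumi and corrected between array experiments with ComBat (versions not stated). Columns of that table had medians of 7.18 to 7.19, and it served as an alternative and for the choice of 1 probe per gene. Raw intensities were background corrected with normexp (offset 50, limma 3.58.1, R 4.3.3), logged to base 2 and then quantile normalized. Of 45281 probes 18 with damaged cells were left out, and the 33947 with a mean above the 25th percentile were tested. The table used here has no detection p-values, so the planned neqc correction was replaced. The 2 experiments are inferred from raw signal percentiles, since the labels do not name them. Limma fitted genotype and experiment, with two-sided moderated tests and Benjamini-Hochberg adjustment over all probes at 0.05. The members and gene lists were chosen with earlier results of these data known, so no list was tested as a set. Genes given by lung were the 12 members of lowest adjusted p and the brightest member of each role without one. Up to 3 genes of each other list were named, by lowest adjusted p, and Gins3 and Gins4 were added. 1 gene that this rule would name is not reported here. The floor of 6.56 is the 5th percentile of gene means plus 0.5 and was set after the data were seen. The offset damps fold changes of dim genes. Of the 45263 intact probes 34874 had 1 symbol, 18 several and 10371 none. Scripts were tested on simulated data. P-values set the difference between the genotypes against the spread between lungs within genotype and experiment. Litter and sex were not terms of the main fit.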

Additional observations from a re-analysis of the deposited data

Results flagged for a closer look

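In 86 groups of 6 lungs, 2 genotypes for each of 43 members, 6 had a highest or lowest lung whose gap to the nearest other lung exceeded Dixon's limit for 6 values. Chance gives about 1 in 20 such groups where the 6 values come from 1 normal distribution. Each group here pools experiments A and B, whose levels differ for members such as Gins1, so this rate need not hold. Wildtype replicate 5 was the highest wildtype lung for Mcm2 (8.98, next 8.67) and Tk1 (8.84, next 8.40). The same lung was flagged in the T cell and thymocyte marker level (8.47, next 6.73). Foxf1+/- replicate 6 was the highest for Rfc3 (7.28, next 6.79). Wildtype replicate 6 was the lowest for Prim2 (7.73, next 8.0) and for the skeletal muscle marker level (7.18, next 9.02). Wildtype replicate 4 was the lowest for Orc1 (5.89) and the highest for Pole2 (6.15), both with probes at the floor.

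Pold1 differed between the array experiments. All 4 Foxf1+/- lungs were above the wildtype lungs in experiment A (difference 0.11), and both were below them in experiment B (difference -0.40), with an adjusted p of 0.999 for genotype by experiment in limma.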

How the results depend on the processing

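The median log2 fold change of the members stayed positive in 29 of 29 alternatives, at 0.04 (no experiment block) to 0.16 (squamous marker level as a covariate). The number of members called, 2 in the full set, differed in 22 of the 29, and the cause was not tested. It was 1 with no background correction, with median scaling, with a filter at the 50th percentile and with the mean of all probes (each time Chaf1a), 0 without the experiment block, with the Xist signal as a covariate and within experiment A or B alone, 3 by the methods' t-test on the authors' processed values (Rrm1, Pole and Chaf1a) and 7 with the squamous marker level as a covariate. Of the mitosis genes 0 were called within experiment A or B alone. The covariates from marker lists were chosen after seeing the data. Leaving out 1 lung gave 0 to 2 members, with 405 to 1108 probes against 1007 in the full set (432 without wildtype replicate 1, 436 without Foxf1+/- replicate 5 and 405 without Foxf1+/- replicate 6). Probes called numbered 501 without the experiment block, 10 in experiment A and 56 in experiment B alone, 1861 by the methods' t-test, 522 of 14292 with the mean of all probes and 2149 with the squamous covariate. The Foxf1 difference lost its call without the experiment block (-0.73, adjusted p = 0.184), in experiment A (-0.80, adjusted p = 0.173) and in experiment B (-1.20, adjusted p = 0.0691). With the replicate number as a block beside experiment, 0 members, 0 mitosis genes and 149 probes were called, and Foxf1 was at -0.96 (adjusted p = 0.0933). Whether the numbers pair the lungs could not be settled. Deviations from the mean of genotype and experiment correlated at -0.35 to 0.17 between same-numbered lungs, and 0 of 6 correlated best with their own number. This check cannot exclude pairing. The deviations of 2 lungs that alone make up a genotype in an experiment mirror each other, and the lungs numbered 3 and 4 fell in different experiments. Signal over background limits the dim members, and 12 arrays limit changes under about 0.42.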
